A study of Mus musculus with 6 samples.

Results

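The 37 genes described here encode the machinery with which the endoplasmic reticulum (ER) imports, folds and clears secreted and membrane proteins, together with the sensors that adjust that machinery. They were chosen by symbol and divided by role into 5 sensors and transcription factors, 15 chaperones and folding enzymes, 9 genes of ER-associated degradation, and 8 genes of the translocon and signal peptidase. All 37 were among the 15063 genes of the deposited tables, and 36 passed the filter on low values, which asked for an RPKM (reads scaled by gene length and by the size of the library) no lower than 1 in 3 or more of the 6 libraries. Derl3, an ER degradation gene, reached that level in 1 library and was not tested.

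The cells were bone marrow mesenchymal stem cells, cultured stromal progenitors, from mice 3 weeks old: 3 libraries from mice in which Mapk7, the gene of the kinase ERK5, was conditionally knocked out (CKO), and 3 from wild-type (WT) mice. The cells were at passage 5, except those of WT library 2, which were at passage 7. The labels name neither the Cre driver nor the strain, WT libraries 1 and 2 carry the same animal number, and the number of WT library 3 differs between its label and its file header. Nothing states that libraries of a genotype came from separate cultures, so the p-values reflect only how far these libraries spread, which may be technical. Libraries held 17351907 to 20689481 reads. Mapk7 itself was at 5.58, 3.84 and 5.45 RPKM in CKO libraries 1 to 3, against 7.12, 6.76 and 9.07 RPKM in WT libraries 1 to 3, so the groups did not overlap, but the difference did not pass (difference on the log2 scale −0.54, SE 0.23, limma adjusted p = 0.505). CKO library 3 and WT library 2 stood furthest from the other libraries, with correlations over the tested genes of 0.795 to 0.928 for CKO library 3 and 0.795 to 0.92 for WT library 2. The collagen gene Col1a1, a stromal marker, was at 1126 to 2959 RPKM, lowest in CKO library 3, while Lepr, a marker of marrow stroma in mice, was at 0.311 RPKM or less in every library. Macrophage transcripts were present in all 6 libraries, with the lysozyme gene Lyz2 at 321 to 2948 RPKM. In such bulk samples, fewer cells of a type and less RNA per cell cannot be told apart.

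Secreted proteins enter the ER through the SEC61 channel and lose their signal peptide to the signal peptidase. Hsp70-type and Hsp90-type chaperones, lectin chaperones and disulfide isomerases fold them, and chains that fail are returned to the cytosol for degradation. When unfolded chains build up, the sensors IRE1, PERK and ATF6 start the unfolded protein response, in which spliced XBP1 and cleaved ATF6 raise the transcription of chaperone and degradation genes. Stromal cells that make bone and connective tissue carry a large load of collagen through this compartment.

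One library stood apart in these genes. In CKO library 3 all 15 chaperone and folding genes were higher than in any other library, and Hspa5, Hsp90b1, Pdia4 and Creld2 were 4.72 to 5.68 times the highest of the other 5. CKO library 1 lay within the WT range for 13 of the 15, and CKO library 2 lay within it for 7, above it for 6 and below it for 2. No member passed the test between genotypes, and 1 of 11085 tested genes did. No translocon or signal peptidase gene was 2-fold above the other libraries in CKO library 3, which was highest for 3 of the 8 by at most 1.36-fold. Ssr2 and Spcs2, both of this group, had all CKO values above all WT values. They were the only 2 of 36 tested members with that arrangement, which 7.51% of all tested genes had.

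Chaperone genes are the textbook targets of a promoter motif called the ER stress response element (ERSE), CCAAT and CCACG with 9 bases of any kind between them, in which NF-Y binds CCAAT and ATF6 or XBP1 binds CCACG. A shorter form, ERSE-II, reads ATTGG and CCACG with 1 base between them, and the unfolded protein response element (UPRE) was searched by its core TGACGTG. Promoter windows of 300 bases, from 250 bases before to 50 bases after the start of transcription, were taken from RefSeq (build GRCm38.p6), which differs from the mm9 build named in the submitters' processing notes, and matched by symbol for 30 of the 37 members. Both strands were searched with exact letters. The 5 windows printed here were chosen for their motifs: 3 chaperone genes that also had a large excess in CKO library 3, and 2 degradation genes. They are written 5′ to 3′ on the gene's strand, and capitals mark the fixed letters of the motifs, which read as CGTGG and ATTGG where an ERSE lies on the opposite strand.
Hspa5 (chr2:34771840-34772139, plus strand; 1 ERSE and 1 UPRE): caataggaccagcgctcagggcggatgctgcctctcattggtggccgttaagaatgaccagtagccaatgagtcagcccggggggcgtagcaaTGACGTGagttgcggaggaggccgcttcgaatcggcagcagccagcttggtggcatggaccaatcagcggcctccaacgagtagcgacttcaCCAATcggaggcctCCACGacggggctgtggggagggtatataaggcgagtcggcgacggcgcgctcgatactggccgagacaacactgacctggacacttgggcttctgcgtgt
Hsp90b1 (chr10:86705395-86705694, minus strand; 2 ERSE, on either strand): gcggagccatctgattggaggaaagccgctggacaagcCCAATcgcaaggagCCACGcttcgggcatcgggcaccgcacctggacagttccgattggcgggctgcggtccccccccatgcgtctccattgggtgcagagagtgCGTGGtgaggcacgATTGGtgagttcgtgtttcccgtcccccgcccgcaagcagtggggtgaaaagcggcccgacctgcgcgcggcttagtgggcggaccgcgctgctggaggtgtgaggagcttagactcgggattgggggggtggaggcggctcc
Creld2 (chr15:88819396-88819695, plus strand; 1 ERSE, opposite strand): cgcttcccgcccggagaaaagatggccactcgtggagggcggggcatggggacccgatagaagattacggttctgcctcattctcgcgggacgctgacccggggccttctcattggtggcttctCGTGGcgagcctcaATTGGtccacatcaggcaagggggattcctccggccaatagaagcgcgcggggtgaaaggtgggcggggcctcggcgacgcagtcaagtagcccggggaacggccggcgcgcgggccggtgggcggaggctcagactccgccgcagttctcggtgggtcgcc
Derl3 (chr10:75893148-75893447, plus strand; 1 ERSE, opposite strand): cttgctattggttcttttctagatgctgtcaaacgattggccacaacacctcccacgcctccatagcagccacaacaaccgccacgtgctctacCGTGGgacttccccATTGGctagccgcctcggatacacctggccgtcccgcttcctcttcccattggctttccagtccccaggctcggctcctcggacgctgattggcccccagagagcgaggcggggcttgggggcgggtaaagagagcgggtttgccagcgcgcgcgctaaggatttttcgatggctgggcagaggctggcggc
Herpud1 (chr8:94386179-94386478, plus strand; 1 ERSE-II): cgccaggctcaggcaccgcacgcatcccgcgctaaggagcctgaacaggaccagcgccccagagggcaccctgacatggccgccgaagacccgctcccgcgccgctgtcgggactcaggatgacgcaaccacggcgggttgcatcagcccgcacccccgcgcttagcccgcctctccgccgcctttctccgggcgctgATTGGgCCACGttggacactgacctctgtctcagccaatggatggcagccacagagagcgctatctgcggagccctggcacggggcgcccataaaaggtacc

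An ERSE was found in 9 of the 30 members (30%) and in 0.119% of all 32851 promoter windows, and an ERSE-II in 2 members and in 0.0365% of windows. The other 6 members with either motif are shown by the motif alone, on its own strand with the spacer in lower case, since the spacer is where they differ.
Calr: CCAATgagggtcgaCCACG
Canx: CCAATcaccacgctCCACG
Pdia6: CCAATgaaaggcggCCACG
Dnajc3: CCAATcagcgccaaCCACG
Syvn1: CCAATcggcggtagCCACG
Dnajb11: ATTGGcCCACG
The 11 members with an ERSE or ERSE-II were 8 of the 13 chaperone and folding genes and 3 of the 8 degradation genes that had a window. None of the 4 sensors or 5 translocon and signal peptidase genes that had a window held either motif. The UPRE core was found in Hspa5 alone among the members and in 2.01% of all windows. A match describes letters and is not a site, and a window without one says nothing of the factors.

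Among the chaperones, Hspa5, which encodes BiP, the Hsp70 of the ER and the repressor of its stress sensors, had 712, 675 and 3821 RPKM in CKO libraries 1 to 3, against 739.5, 444 and 552 RPKM in WT libraries 1 to 3. Hsp90b1, the gene of the ER Hsp90 known as GRP94, had 706, 695 and 3606 RPKM in CKO libraries 1 to 3, against 765, 331 and 539 RPKM in WT libraries 1 to 3. Both genes showed the same arrangement, with CKO library 3 far above, WT library 2 lowest, and the other 4 libraries between them. Behind the Hspa5 values were 171866 reads in CKO library 3 and 23298 to 34146 in each of the others. Hyou1, a large Hsp70-like chaperone and exchange factor of BiP, had 70.9, 56.9 and 298 RPKM in CKO libraries 1 to 3, against 68.0, 58.9 and 38.9 RPKM in WT libraries 1 to 3. These values again put CKO library 3 alone above an overlapping set of 5.

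The lectin chaperones and disulfide isomerases were also highest in CKO library 3, by ratios that ranged from 1.46 for P4hb to 5.05 for Pdia4. Calr, the gene of calreticulin, which binds glycoproteins and calcium, had 903, 1074 and 2173 RPKM in CKO libraries 1 to 3, against 1068, 929.9 and 769 RPKM in WT libraries 1 to 3. Its partner Canx, the membrane-bound calnexin, had 196, 160.5 and 344 RPKM in CKO libraries 1 to 3, against 199, 109 and 141 RPKM in WT libraries 1 to 3. In both, CKO library 3 was highest and the other values of the genotypes overlapped, but the ratio to the next library was 2.02 for Calr and 1.73 for Canx. Pdia4, an isomerase that exchanges disulfide bonds, stood out among its relatives at 1052 RPKM in CKO library 3, against 154 to 208 RPKM in the other 5 libraries. Pdia3, the isomerase that works with calnexin and calreticulin, reached 1293 RPKM in CKO library 3, against 337 to 629 RPKM in the other 5 libraries, and Pdia6 912 RPKM in CKO library 3, against 286 to 421 RPKM in the other 5 libraries. P4hb, which is both the main disulfide isomerase and a subunit of collagen prolyl hydroxylase, had the smallest ratio of the 15, 1.46, at 1107 RPKM in CKO library 3, against 505 to 758 RPKM in the other 5 libraries.

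The genes of co-chaperones and small ER proteins were likewise highest in CKO library 3. Creld2, an ER protein known as a stress-induced secretory factor, had 42.8, 65.1 and 369.8 RPKM in CKO libraries 1 to 3, against 55.05, 58.4 and 38.4 RPKM in WT libraries 1 to 3, which made it the member with the highest ratio among those tested (5.68). Sdf2l1, a component of the BiP chaperone cycle, had 187 RPKM in CKO library 3, against 26.4 to 38.5 RPKM in the other 5 libraries. Manf, the gene of a secreted factor that also binds BiP, had 259, 419 and 1058 RPKM in CKO libraries 1 to 3, against 274, 253 and 211 RPKM in WT libraries 1 to 3. For Manf, CKO library 2 also lay above the 3 WT libraries, whereas CKO library 1 lay within their range. The J-domain partners of BiP were Dnajb9 (ERdj4), which represses IRE1 through BiP, at 102 RPKM in CKO library 3, against 17.99 to 33.7 RPKM in the other 5 libraries, Dnajb11 (ERdj3) at 133 RPKM in CKO library 3, against 45.5 to 61.97 RPKM in the other 5 libraries, and Dnajc3 (P58IPK) at 148 RPKM in CKO library 3, against 30.2 to 43.8 RPKM in the other 5 libraries. All of them were highest in CKO library 3 by 2.15-fold or more.

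In 5 of the 6 libraries Calr had the highest level per length of the 37 members, with a mean over those 5 of 949 ± 127 RPKM (SD), followed by P4hb (673 ± 104 RPKM), Hspa5 (625 ± 123 RPKM) and Hsp90b1 (607 ± 175 RPKM). The means of P4hb, Hspa5 and Hsp90b1 lay within that spread of each other. The spread is between libraries and does not measure differences between genes within a library, which were not tested. The order was different in CKO library 3, where Hspa5 (3821 RPKM) and Hsp90b1 (3606 RPKM) lay above Calr (2173 RPKM). The 15 chaperone and folding genes took 1.19, 1.27 and 4.11% of the reads of CKO libraries 1 to 3, against 1.29, 0.876 and 1.00% in WT libraries 1 to 3. Only CKO library 3 left the range of the WT libraries.

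**Figure D1:**
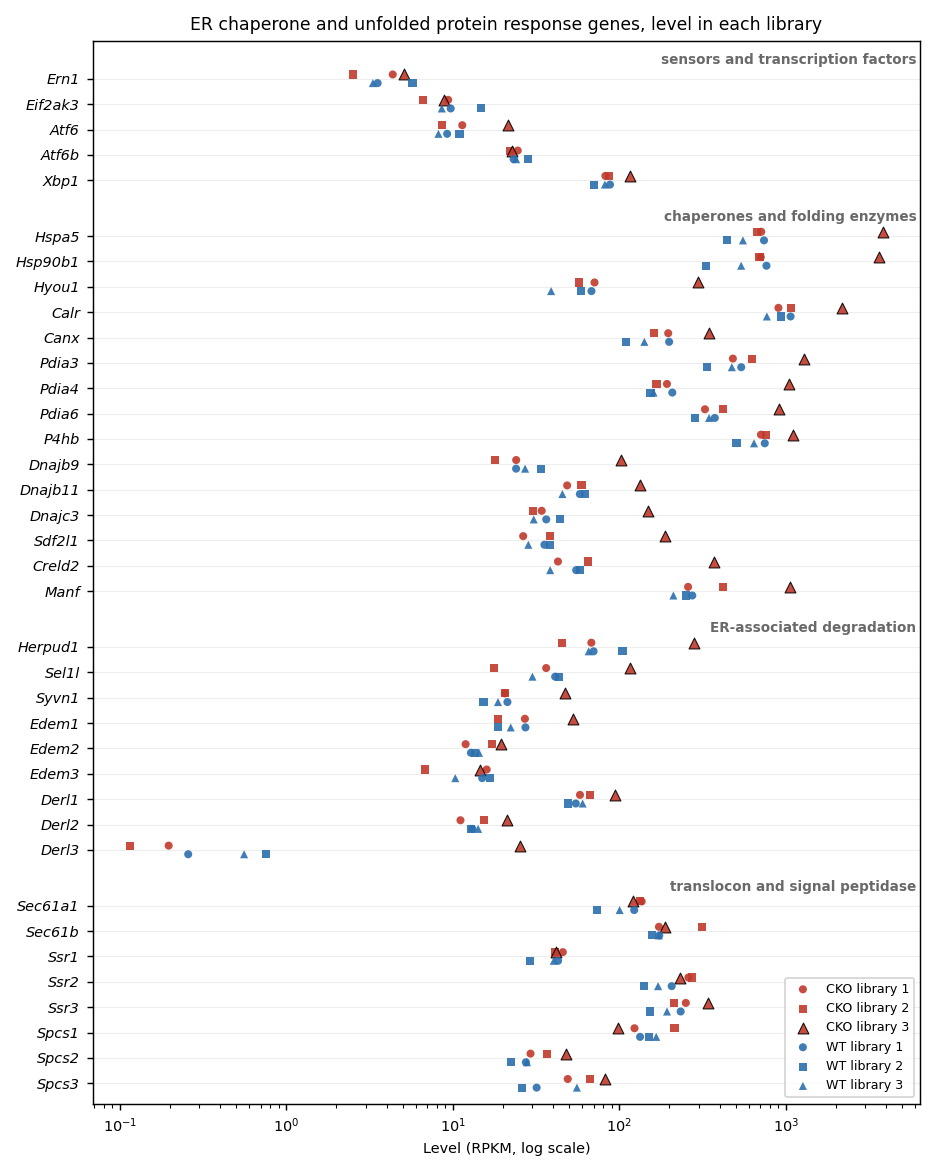
Level of each of the 37 members in each library in RPKM, on a log axis, with CKO libraries in red above WT libraries in blue and 1 symbol per library number. The outlined triangles of CKO library 3 stand to the right of all other symbols for the 15 chaperone genes and for Derl3, while among the 8 translocon and signal peptidase genes they are highest in 3 (Ssr3, Spcs2 and Spcs3) and lowest in 1 (Spcs1).

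All ER-associated degradation genes but Edem3 were highest in CKO library 3, by ratios that differed widely. Herpud1, which encodes a membrane scaffold of the degradation complex, had 67.9, 45.2 and 279 RPKM in CKO libraries 1 to 3, against 70.05, 104 and 65.5 RPKM in WT libraries 1 to 3. Sel1l, the adaptor of the HRD1 ubiquitin ligase, had 36.4, 17.6 and 116 RPKM in CKO libraries 1 to 3, against 41.2, 43.5 and 30.1 RPKM in WT libraries 1 to 3. In both genes CKO library 2 was the lowest of the 6 libraries and CKO library 3 the highest, so the CKO libraries enclosed the WT range. Syvn1, the gene of HRD1 itself, had 46.9 RPKM in CKO library 3, against 15.3 to 21.3 RPKM in the other 5 libraries.

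Derl3 showed the widest span of all members. Derlins are membrane proteins that help to move chains out of the ER, and Derl3 is the derlin of highly secretory cells. It had 0.196, 0.115 and 25.5 RPKM in CKO libraries 1 to 3, against 0.257, 0.755 and 0.557 RPKM in WT libraries 1 to 3. The values rest on 5, 3 and 608 reads in CKO libraries 1 to 3, against 6, 21 and 13 in WT libraries 1 to 3, and the level in CKO library 3 was 33.7 times that in WT library 2. Its relatives Derl1 and Derl2 were also highest in CKO library 3, but only by 1.42-fold and 1.37-fold, at 94.2 RPKM in CKO library 3, against 49.1 to 66.2 RPKM in the other 5 libraries for Derl1 and 21.1 RPKM in CKO library 3, against 11.1 to 15.4 RPKM in the other 5 libraries for Derl2.

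The EDEM proteins act on the sugars of glycoproteins bound for degradation, and their 3 genes did not behave alike across libraries. Edem1 had 52.4 RPKM in CKO library 3, against 18.6 to 27.3 RPKM in the other 5 libraries. Edem2 had 19.3 RPKM in CKO library 3, against 11.9 to 17.2 RPKM in the other 5 libraries, which is close to CKO library 2. Edem3 had 15.97, 6.79 and 14.5 RPKM in CKO libraries 1 to 3, against 15.01, 16.8 and 10.3 RPKM in WT libraries 1 to 3, where WT library 2 was highest and CKO library 2 lowest. The 9 degradation genes together took 0.0965, 0.0746 and 0.234% of reads in CKO libraries 1 to 3, against 0.0997, 0.1004 and 0.0874% in WT libraries 1 to 3.

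Of the sensors, Atf6 alone was over 1.5-fold higher in CKO library 3 than in every other library. Atf6, the gene of the sensor that is cleaved to release a transcription factor, had 11.4, 8.59 and 21.4 RPKM in CKO libraries 1 to 3, against 9.24, 10.96 and 8.19 RPKM in WT libraries 1 to 3. Its homologue Atf6b had 24.5, 21.96 and 22.8 RPKM in CKO libraries 1 to 3, against 23.2, 28.1 and 23.99 RPKM in WT libraries 1 to 3, with all 6 values close together. Xbp1, whose transcript is spliced by IRE1, had 82.4, 86.9 and 116 RPKM in CKO libraries 1 to 3, against 87.8, 70.7 and 81.8 RPKM in WT libraries 1 to 3, highest in CKO library 3 by 1.32-fold, and RPKM per gene does not separate spliced from unspliced Xbp1. Ern1, the gene of IRE1, had 4.36, 2.5 and 5.12 RPKM in CKO libraries 1 to 3, against 3.53, 5.72 and 3.31 RPKM in WT libraries 1 to 3. Eif2ak3, the gene of PERK, had 9.37, 6.63 and 8.9 RPKM in CKO libraries 1 to 3, against 9.71, 14.8 and 8.58 RPKM in WT libraries 1 to 3. Ern1 and Eif2ak3 were highest in WT library 2, the passage 7 culture, and lowest in CKO library 2, and their values in CKO library 3 lay inside that range.

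Genes of the translocon and signal peptidase had a different arrangement. Sec61a1, the channel-forming subunit, had 136, 134 and 121 RPKM in CKO libraries 1 to 3, against 123, 73.1 and 100.4 RPKM in WT libraries 1 to 3, and Sec61b, a small subunit of the channel, had 173, 315 and 189 RPKM in CKO libraries 1 to 3, against 174, 157 and 173 RPKM in WT libraries 1 to 3. Neither was highest in CKO library 3: Sec61a1 was highest in CKO library 1 and Sec61b in CKO library 2. The translocon-associated protein genes Ssr1, Ssr2 and Ssr3 encode subunits of a complex beside the channel. Ssr2 had 259.6, 272 and 229.9 RPKM in CKO libraries 1 to 3, against 206, 139.8 and 171 RPKM in WT libraries 1 to 3. Every CKO value of Ssr2 was above every WT value. Ssr1 had 45.7, 40.9 and 41.7 RPKM in the CKO libraries against 42.8, 28.97 and 40.4 RPKM in WT, and Ssr3 had 251, 213 and 341 RPKM in the CKO libraries against 234, 154 and 193 RPKM in WT, and in both the groups overlapped.

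The signal peptidase subunit genes differed among themselves. Spcs2 had 29.3, 36.99 and 47.9 RPKM in CKO libraries 1 to 3, against 27.5, 22.4 and 27.9 RPKM in WT libraries 1 to 3, with no overlap between the groups. Spcs3, a subunit that is essential in yeast, had 48.99, 66.4 and 81.8 RPKM in CKO libraries 1 to 3, against 31.9, 26.1 and 55.6 RPKM in WT libraries 1 to 3, where WT library 3 lay above CKO library 1. Spcs1 was the one member that was lowest in CKO library 3, at 123, 214 and 98.6 RPKM in CKO libraries 1 to 3, against 133, 150.3 and 166 RPKM in WT libraries 1 to 3. WT library 2 was the lowest of the 6 libraries for 7 of the 8 translocon and signal peptidase genes and for 17 of the 36 tested members, where it was lowest for 36.8% of all tested genes. It was also lowest for all 15 cell cycle genes of the marker lists, and the part of growth state or passage in the translocon values was not tested.

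**Figure D2:**
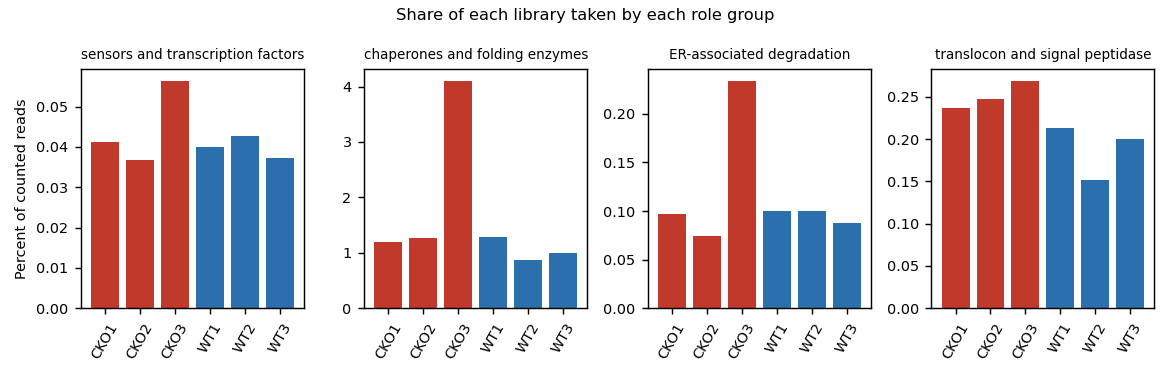
Percent of the counted reads of each library taken by the genes of each role group, with the 3 CKO libraries in red left of the 3 WT libraries in blue and a separate axis from 0 in each panel. Chaperone genes took 4.11% in CKO library 3 against 0.876 to 1.29% in the other libraries. Translocon and signal peptidase genes took 0.236 to 0.269% in CKO and 0.151 to 0.213% in WT, lowest in WT library 2. Taken singly, only Ssr2 and Spcs2 of these 8 genes had groups without overlap.

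Set against all genes, the excess of CKO library 3 was measured as the distance to the highest of the other 5 libraries on the log2(RPKM + 1) scale. CKO library 3 was highest in 27 of the 36 tested members and in 21.1% of all 11085 tested genes. It was at least 2-fold above every other library in 16 of the 36 members (44.4%) and in 1.45% of all tested genes, or 161 genes. By role these were 13 of 15 chaperone and folding genes (all but Canx and P4hb) and 3 of 8 tested degradation genes (Herpud1, Sel1l and Syvn1). None of 5 sensors and none of 8 translocon and signal peptidase genes reached 2-fold. The median excess was 1.57 for chaperones, 0.71 for degradation genes, −0.14 for sensors, −0.15 for translocon and signal peptidase genes and −0.35 for all tested genes. No other library was 2-fold above the rest in any member, although WT library 2 was so in 2.37% of all tested genes. The 16 became 11 after median centring and 13 after quantile normalization of the libraries. With 1 library on one side there is no test of this contrast.

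Members with an ERSE or ERSE-II in their window had a median excess of 1.26 (range 0.79 to 2.49, 10 tested members), and 9 of the 10 were past 2-fold. The 19 tested members whose window held neither had a median of 0.40 (range −1.11 to 2.33), and 5 were past 2-fold, among them Pdia4 and Sdf2l1. The group with neither motif holds all sensors and translocon genes that had a window. Among chaperone and folding genes alone, the 8 with a motif had a median excess of 1.43 with 7 past 2-fold, and the 5 with neither had a median of 1.57 with 4 past 2-fold. In these 8 and 5 genes, with values from 1 library, the median excess was no larger with a motif. A role of the motif in the excess was not tested. Outside the members, 15 tested genes had either motif and 1 of them was past 2-fold, Ero1b, an oxidase that recharges the disulfide isomerases and is named after its values were seen (1.80 RPKM at most in the other libraries and 11.3 RPKM in CKO library 3). Over all 8917 tested genes with a window, the share past 2-fold was 1.33%.

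**Figure D3:**
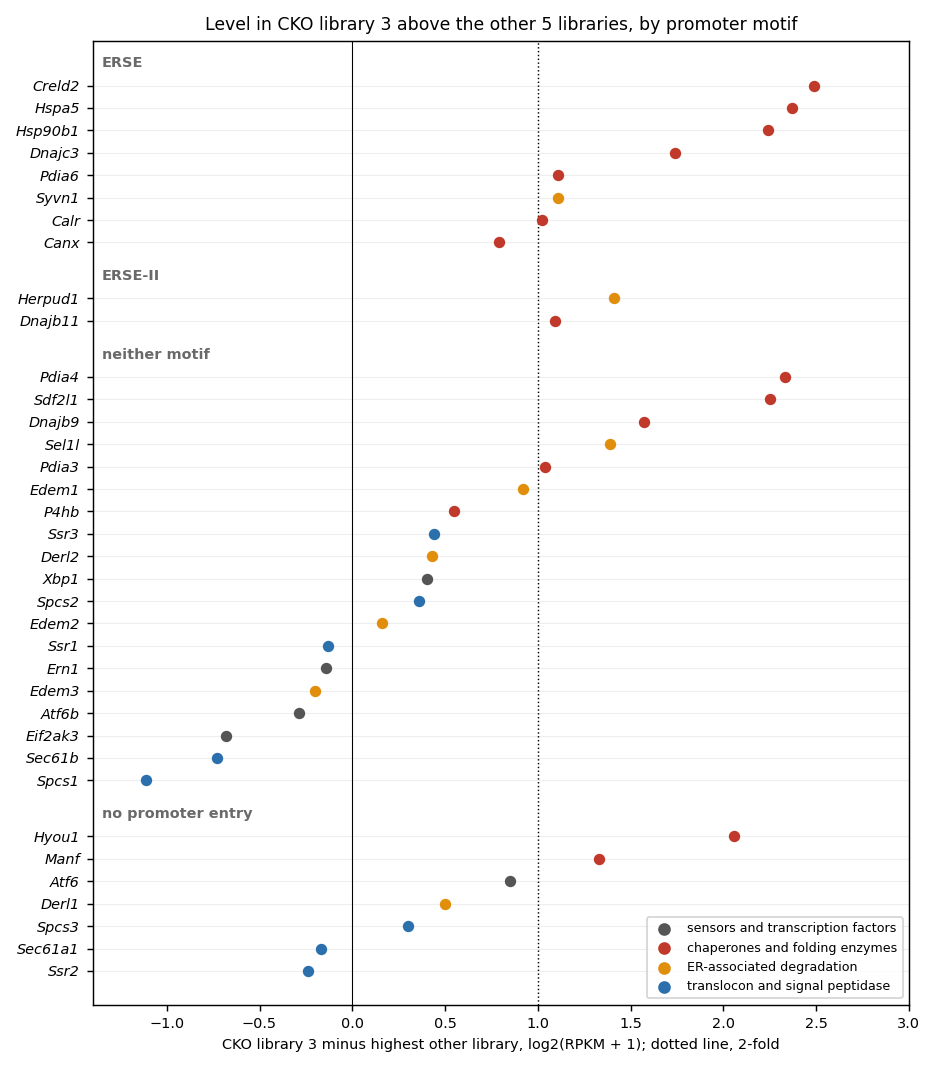
Level in CKO library 3 minus the highest of the other 5 libraries, on the log2(RPKM + 1) scale, for the 36 tested members, grouped by exact motif match in the promoter window and coloured by role. Of the 10 members with an ERSE or ERSE-II, 9 lie right of the dotted line at 2-fold, and so do 4 of the 5 chaperone genes whose window holds neither (Pdia4, Sdf2l1, Dnajb9 and Pdia3).

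Between genotypes, CKO against WT, no member passed limma's test at an adjusted p of 0.05, and 1 of 11085 tested genes (0.00902%) did. At an unadjusted p under 0.05 there was 1 member, Spcs3 (difference on the log2 scale 0.82, SE 0.34, limma adjusted p = 0.498, with 2 of 3 CKO libraries above all WT libraries), where the share over all tested genes was 9.74%. The log2 difference was above 0 in 31 of the 36 members and in 53.7% of all tested genes. Chaperone and folding genes had a median of 0.73 with all 15 above 0, degradation genes 0.25, translocon and signal peptidase genes 0.44, sensors −0.07, and all tested genes 0.03. The median of the sensors changed sign between settings that used all libraries, from −0.10 to 0.06. Hspa5 averaged 1736 ± 1806 RPKM in CKO and 579 ± 149 RPKM in WT (SD, n = 3 each), and the SD of its CKO libraries exceeded their mean (difference on the log2 scale 1.11, SE 0.69, limma adjusted p = 0.625). Manf had the lowest p among the chaperones, at 579 ± 423 RPKM in CKO and 246 ± 32.03 RPKM in WT (SD, n = 3 each) (difference on the log2 scale 0.99, SE 0.52, limma adjusted p = 0.586).

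CKO library 3 was the highest library for all 15 chaperone and folding genes, so leaving it out necessarily lowered their differences. The median over the 15 chaperone and folding genes was 0.15, with 11 above and 4 below 0, where all tested genes had a median of 0.01 and 50.6% lay above 0. On the log2 scale they then ran from −0.41 (SE 0.27) for Dnajb9 to 0.44 (SE 0.47) for Hsp90b1. Between these lay Manf at 0.43 (SE 0.38), Pdia3 at 0.32 (SE 0.40) and Hspa5 at 0.29 (SE 0.41). Creld2 was at 0.08 (SE 0.33) and Pdia4 at 0.06 (SE 0.33). Degradation genes had a median of −0.01, with Sel1l at −0.56 (SE 0.37) and Herpud1 at −0.49 (SE 0.34). No member had an unadjusted p under 0.05 in limma without CKO library 3, where the share over all genes was 7.34%. With WT library 2 left out as well, which leaves 2 passage 5 libraries of each genotype, the chaperone median was 0.08 and that of all genes −0.04, with 44.8% of all genes above 0.

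The translocon and signal peptidase genes had a median of 0.41 without CKO library 3, with 8 of 8 above 0, and of 0.26 without CKO library 3 and WT library 2. Ssr2 averaged 254 ± 21.4 RPKM in CKO and 172 ± 33.2 RPKM in WT (SD, n = 3 each), and Spcs2 averaged 38.04 ± 9.34 RPKM in CKO and 25.9 ± 3.03 RPKM in WT (SD, n = 3 each). Their differences did not pass (difference on the log2 scale 0.57, SE 0.27, limma adjusted p = 0.558 for Ssr2; difference on the log2 scale 0.51, SE 0.24, limma adjusted p = 0.556 for Spcs2). They were 2 of 36 members whose CKO values all lay above the WT values, where 7.51% of all tested genes did, and no member had all CKO values below the WT values, where 9.18% of genes did. With all 6 libraries and no further normalization the share of members was thus near or below that of all genes. After quantile normalization the groups of Ssr2 overlapped and those of Spcs2 did not. The count of 2 depended on single libraries. Leaving out WT library 1 gave 15 of 36 members (16.6% of all genes), and leaving out CKO library 1 gave 13 of 36 (13.3%). In both settings the share of members was well above that of all genes. Dropping CKO library 2 gave 5 (17.6%), dropping WT library 3 gave 4 (11.1%), dropping CKO library 3 gave 3 (11.7%), and dropping WT library 2 gave 2 (8.55%). With CKO library 3 and WT library 2 both left out there were 3 (13.3%). Median centring gave 4 (10.6%). Merging WT libraries 1 and 2 gave 13 of 36 (14.8%), again a share well above that of all genes.

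Medians of marker lists of other cells and of growth also lay away from 0 in this comparison. Without CKO library 3 the 18 tested macrophage markers were all below 0 (median −0.91). The 15 cell cycle genes were all above 0 (median 1.2), where 50.6% of all tested genes were. With all libraries the medians were −0.26 for macrophage markers and 1.03 for cell cycle genes. With CKO library 3 and WT library 2 both left out they were −1.38 and 0.23. WT library 2 was the lowest library for all 15 cell cycle genes. Of the 11 tested stromal markers 8 lay below 0 with all libraries (median −0.72) and 8 without CKO library 3 (median −0.66). With WT library 2 left out as well the stromal median was −0.32. The stromal markers Pdgfra, Pdgfrb, Ly6a and Cxcl12 (4 of 11) had all CKO values below all WT values. Over all tested genes 9.18% did. Pdgfrb was at 48.5, 36.9 and 26.1 RPKM in the CKO libraries against 85.8, 66.05 and 60.2 RPKM in WT. With all libraries Thy1, Nt5e and Prrx1 lay above 0, at 0.40, 0.50 and 0.09 on the log2 scale. No marker of these lists passed limma's adjusted threshold in any of these fits, and the part of these shifts in the translocon and chaperone differences was not tested.

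**Figure D4:**
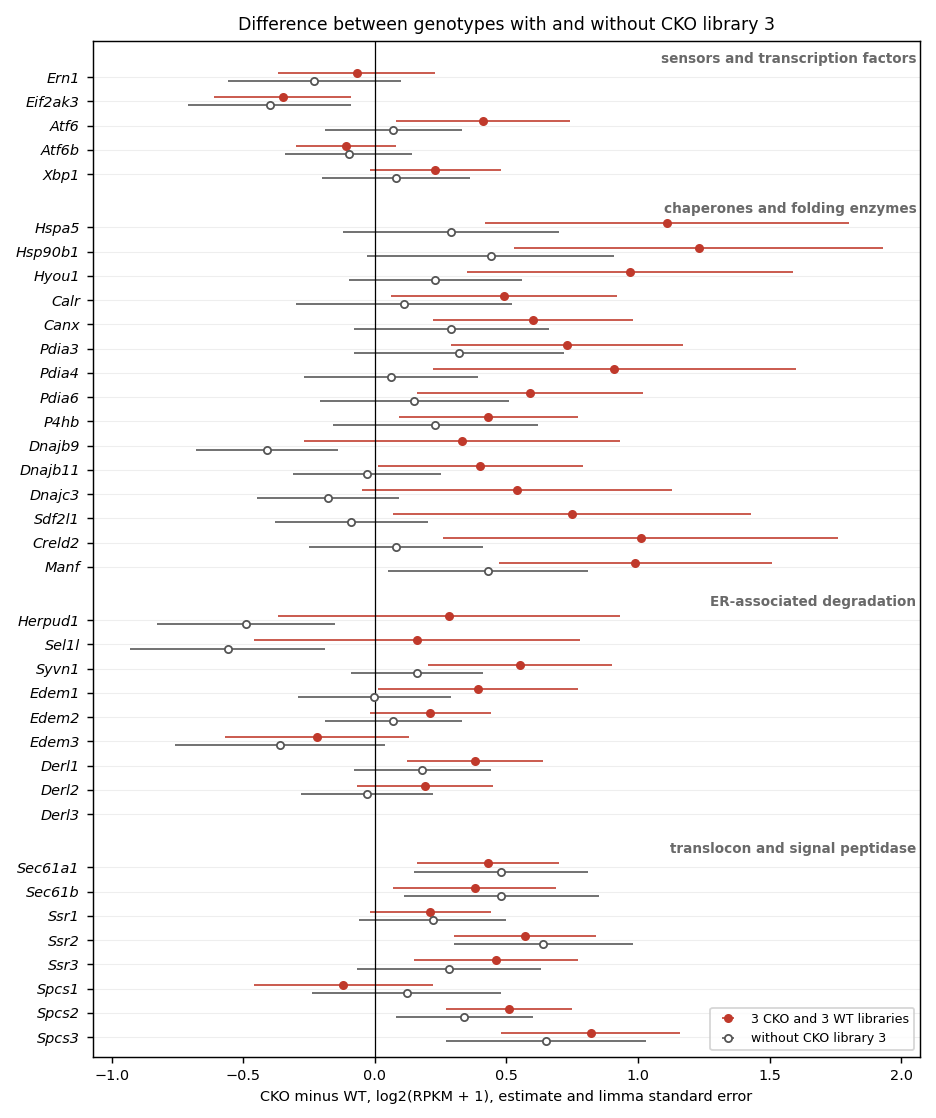
Difference between CKO and WT for each tested member, on the log2(RPKM + 1) scale with limma's standard error, from all 6 libraries (filled) and without CKO library 3 (open). All 15 chaperone genes lie further left without CKO library 3, Hspa5 at 0.29, while Ssr2 lies at 0.64 without it and at 0.57 with it.

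Markers of other cells moved partly with CKO library 3. The 19 macrophage markers averaged 3.95, 3.03 and 5.15 in CKO libraries 1 to 3, against 4.12, 3.25 and 5.42 in WT libraries 1 to 3, on the log2(RPKM + 1) scale, and none of the 18 tested passed. CKO library 3 was highest for 7 of the 18 and WT library 3 for 11, while the sum over the list was 813, 469 and 3753 RPKM in CKO libraries 1 to 3, against 1174, 883 and 2508 RPKM in WT libraries 1 to 3. On the log2(RPKM + 1) scale the 15 chaperone and folding genes averaged 7.37, 7.48 and 9.26 in CKO libraries 1 to 3. In WT libraries 1 to 3 they averaged 7.51, 7.22 and 7.17. Derl3 and the chaperones are abundant in plasma cells. Of 10 B and plasma cell markers 4 were in the tables, and in CKO library 3 Pou2af1 was at 0, Cd79a at 0.281 RPKM and Jchain at 0.563 RPKM, while Cd38, which macrophages also express, reached 7.65 RPKM there and 0.225 to 0.978 RPKM in the others. The osteoclast-associated genes Acp5 and Mmp9 were also highest there, at 10.45 and 21.1 RPKM, against at most 2.73 and 0.649 RPKM elsewhere. Ctsk, Ocstamp and Dcstamp of the same list were not highest there. Ctsk was at 57.2 RPKM in CKO library 3 and 41.9 to 94.1 RPKM in the others, and Ocstamp and Dcstamp were at 0.144 and 0.165 RPKM there. Over the other lists, the 5 osteoclast genes in the tables summed to 89.0 RPKM in CKO library 3 and 42.6 to 97.3 RPKM in the other libraries, the 4 granulocyte genes to 7.97 RPKM and 0.161 to 4.45 RPKM, and the 4 endothelial genes to 1.94 RPKM and 0.0573 to 1.76 RPKM. Stromal markers averaged 5.78 in CKO library 3 and 5.58 to 6.46 in the others, and the 15 cell cycle genes 3.79 in CKO library 3, 1.40 in WT library 2 and 4.15 to 4.94 in the remaining 4. The part of these cells and of growth state in the chaperone levels was not tested.

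**Figure D5:**
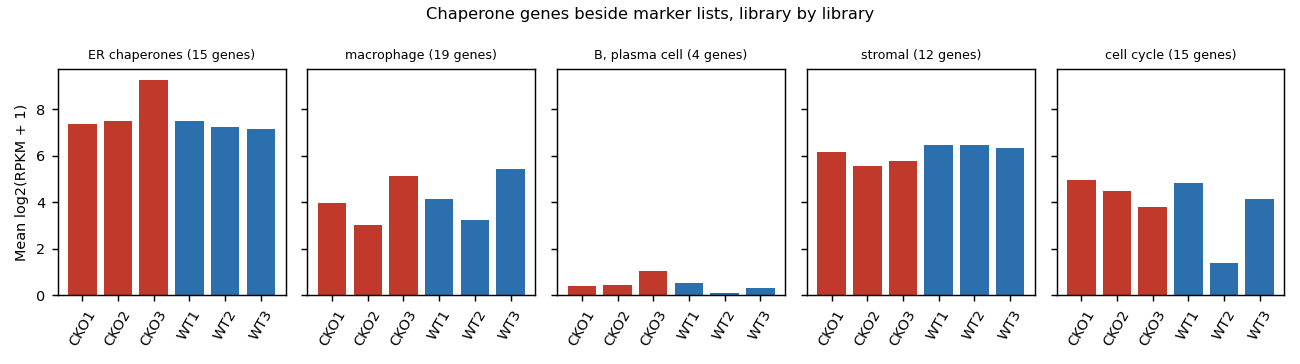
Mean log2(RPKM + 1) of the 15 ER chaperone genes beside 4 marker lists in each library, with the CKO libraries in red left of the WT libraries in blue. The chaperone mean peaks at 9.26 in CKO library 3, while the macrophage mean is highest in WT library 3 at 5.42.

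Further genes of the pathway were read from 4 lists. Of their 78 genes 77 were in the tables and tested, none passed in either direction (lowest limma adjusted p = 0.497), and 1 had an unadjusted p under 0.05 (9.74% of all tested genes). The log2 difference was above 0 in 46 and below 0 in 31 of the 77, with a median of 0.09. The groups did not overlap in 5 with CKO above and 7 with CKO below, close to the shares of 7.51 and 9.18% over all genes.

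Outputs of the PERK branch, proteases of ATF6 and further CREB/ATF family factors formed the first list, with 8 of 14 above 0. Ddit3, the gene of the stress factor CHOP, had 19.3, 25.4 and 69.7 RPKM in CKO libraries 1 to 3, against 15.3, 9.04 and 23.9 RPKM in WT libraries 1 to 3, and CKO library 3 was highest by 2.75-fold. Trib3, a target of CHOP and ATF4, had 45.0, 26.7 and 80.7 RPKM in CKO libraries 1 to 3, against 42.4, 7.71 and 32.3 RPKM in WT libraries 1 to 3. Ppp1r15b, a phosphatase subunit that reverses PERK signalling, had 29.7, 18.6 and 26.3 RPKM in the CKO libraries against 24.03, 11.6 and 16.5 RPKM in WT, and Creb3l1, a collagen-regulating relative of ATF6, had 54.8, 41.7 and 37.3 RPKM in the CKO libraries against 63.1, 50.8 and 62.1 RPKM in WT. Atf4, the factor translated under PERK and named here after its values were seen, had 329.7, 351 and 356 RPKM in the CKO libraries against 279, 263 and 284 RPKM in WT, with no overlap but a small difference (difference on the log2 scale 0.33, SE 0.26, limma adjusted p = 0.69).

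In the list of other folding and glycosylation genes, 16 of 27 lay above 0. Fkbp14, a collagen-binding prolyl isomerase, had 28.6, 26.2 and 22.2 RPKM in CKO libraries 1 to 3, against 34.3, 40.4 and 34.8 RPKM in WT libraries 1 to 3, below WT in all 3 CKO libraries (difference on the log2 scale −0.50, SE 0.20, limma adjusted p = 0.497). Sil1, an exchange factor of BiP, was also below WT in all 3, at 5.56, 6.39 and 6.67 RPKM in the CKO libraries against 6.82, 16.96 and 10.5 RPKM in WT. Rpn1, a subunit of the oligosaccharyltransferase, had 113, 109 and 184 RPKM in the CKO libraries against 109, 88.2 and 83.9 RPKM in WT, and Txndc11, a redox partner of ER degradation, had 19.3, 18.1 and 30.4 RPKM in the CKO libraries against 20.1, 13.6 and 13.7 RPKM in WT. The oxidase gene Ero1a, chosen after its values were seen, had 211 RPKM in CKO library 3, against 14.8 to 34.9 RPKM in the other 5 libraries. It, Ero1b and Ddit3 were the 3 of 77 further genes at least 2-fold higher in CKO library 3 than elsewhere.

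Of the other degradation genes 8 of 19 lay above 0 and 11 below. Ngly1, which strips sugars from retrotranslocated chains, had 8.89, 7.57 and 7.12 RPKM in the CKO libraries against 9.53, 9.81 and 12.3 RPKM in WT, and Rnf139, the gene of a ubiquitin ligase, had 8.3, 7.19 and 8.16 RPKM in the CKO libraries against 8.61, 10.97 and 10.8 RPKM in WT. In both genes all CKO values lay below all WT values, and neither passed (limma adjusted p = 0.591 for Ngly1 and 0.625 for Rnf139). Erlec1, a lectin that recognises substrates, had 3.5, 3.45 and 3.56 RPKM in the CKO libraries against 3.36, 6.22 and 5.06 RPKM in WT. CKO library 3 was not the highest library for any of the 19.

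Of the other translocation genes 14 of 17 lay above 0. Sec63, the J-domain partner that recruits BiP to the channel, had 34.3, 32.9 and 43.3 RPKM in CKO libraries 1 to 3, against 30.0, 21.5 and 25.2 RPKM in WT libraries 1 to 3, above WT in all 3 CKO libraries (difference on the log2 scale 0.51, SE 0.22, limma adjusted p = 0.524). Its partner Sec62 had 39.2, 41.3 and 36.6 RPKM in the CKO libraries against 43.2, 50.6 and 53.4 RPKM in WT and lay below WT in all 3. The channel subunit gene Sec61g had 73.3, 156 and 104 RPKM in the CKO libraries against 66.2, 54.7 and 79.5 RPKM in WT, and Srp19, a protein of the signal recognition particle, had 47.8, 88.9 and 60.3 RPKM in the CKO libraries against 53.3, 34.2 and 52.8 RPKM in WT. Their groups overlapped, and no gene of this list was 2-fold above the rest in CKO library 3.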

How the data were processed

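RNA-seq of bone marrow mesenchymal stem cell cultures gave 6 libraries, grouped by sample title. The authors deposited 1 RPKM value per gene and library. The file headers say only expression, and the unit was inferred from the values: a whole total for each library and a whole length for each gene turned the values of 15062 of 15063 genes into whole reads, within 0.01 read (0 of 500 shuffled genes). Read numbers and totals come from that recovery. For a gene of 1 kb, 3 reads equal 0.145 to 0.173 RPKM, which covers counting error only. The submitters' processing notes name the build mm9. Aligner, counter, annotation and strandedness were not given in the sources used here, so overlapping or antisense genes may share reads. A table repeating the same values was not used.

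Tests used limma 3.58.1 in R 4.3.3 on log2(RPKM + 1) without further normalization, over the 11085 genes that reached RPKM 1 in 3 or more libraries, with genotype as the only term, trend and robust moderation, and two-sided p-values adjusted by Benjamini-Hochberg over all tested genes (threshold 0.05). Differences are CKO minus WT, and the scale understates changes of low genes. The fit was checked on simulated data with 1 dispersion for all genes and no outlying library. That check does not measure its power in these libraries. The members and lists were chosen with earlier results of these data known. Genes named are the 37 members, up to 4 per further list with the lowest p (1 of these is not reported here), and markers; others are said to be chosen after their values were seen. Alternatives were no filter, a filter at RPKM 5, a pseudocount of 0.1, median centring, quantile normalization, no trend or robust moderation, limma-voom on recovered reads, leaving out each library, merging WT libraries 1 and 2, and the replicate number as a block. Leaving out CKO library 3 and WT library 2 together, and all settings for the excess of CKO library 3, were chosen after seeing the data.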

Additional observations from a re-analysis of the deposited data

How the results depend on the processing

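No member and no further pathway gene passed limma's adjusted p of 0.05 under any of the 16 alternatives; 0 to 3 members had an unadjusted p under 0.05, and 1 did with limma-voom on recovered reads. Over all genes, the 1 gene past the threshold became 0 without a filter, with a pseudocount of 0.1, with limma-voom, with the replicate block and without CKO library 3 and WT library 2 together (1399, 1059, 1005, 1123 and 604 genes at an unadjusted p under 0.05), 2 after median centring or quantile normalization, 4 with the filter at RPKM 5, 20 with WT libraries 1 and 2 merged, and 0 to 24 with 1 library left out. Members with all CKO values above WT numbered 2, and 2 to 15 with 1 library left out (8.55 to 17.6% of all genes), 4 after median centring (10.6% of all genes) and 13 with WT libraries 1 and 2 merged (14.8%); those with all CKO values below numbered 0, and 0 to 1 with 1 library left out. The count of members at least 2-fold above all others in CKO library 3 was 11 to 17. The median difference ranged from 0.15 to 1.03 for chaperones, −0.01 to 0.58 for degradation genes and 0.32 to 0.58 for translocon and signal peptidase genes with 1 library left out.

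Member differences changed sign in 22 of 575 refits, of which 18 left out CKO library 3; 9 members changed sign when it alone was left out. With 1 library left out they ranged from −0.03 to 0.41 for Derl2, −0.03 to 0.69 for Dnajb11, −0.41 to 0.81 for Dnajb9, −0.18 to 0.95 for Dnajc3, −0.0024 to 0.72 for Edem1, −0.43 to 0.13 for Edem3, −0.23 to 0.17 for Ern1, −0.49 to 0.81 for Herpud1, −0.09 to 1.30 for Sdf2l1, −0.56 to 0.77 for Sel1l and −0.43 to 0.12 for Spcs1. Without CKO library 3 and WT library 2 together they were −0.05 for Derl2, −0.28 for Dnajb9, −0.05 for Dnajc3, −0.13 for Edem1, −0.28 for Herpud1, −0.02 for Pdia4, −0.46 for Sel1l, 0.13 for Spcs1 and −0.0023 for Xbp1, and Ern1 was 0.0029 after quantile normalization. Apart from fewer libraries or genes, the cause of these changes was not tested.

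The values gave no clear sign that the replicate numbers pair the libraries, but they cannot exclude it. Deviations of same-numbered libraries correlated at 0.198, 0.0145 and −0.0192. CKO library 1 correlated best with WT library 1, but CKO library 2 did so with WT library 3 (0.206). The replicate block gave 0 calls over all genes and 0 among the members. Depth did not limit the members, except Derl3, which had 3 to 21 reads in 5 libraries.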

Other observations

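Of the 161 tested genes at least 2-fold higher in CKO library 3 than in any other library, 16 (9.94%) were members of the ER set and 3 were further pathway genes. The largest excess outside these sets, in genes chosen after their values were seen, was that of Saa3, an acute phase gene, at 526 RPKM in CKO library 3 and 1.37 to 6.95 RPKM in the other 5 libraries. Ccl6, a chemokine gene of myeloid cells, was at 786 RPKM in CKO library 3 and 2.83 to 29.99 RPKM in the others. Egln3, a hypoxia-induced prolyl hydroxylase gene, was at 42.3 RPKM in CKO library 3 and 1.04 to 3.09 RPKM in the others. These values were not tested, since they rest on 1 library.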
